A study of Homo sapiens with 4 samples.

Results

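The carnitine shuttle carries long-chain fatty acids into mitochondria, and 8 genes of the shuttle and of the related carnitine acyltransferases were followed: CPT1A, CPT1B, CPT1C, CPT2, SLC25A20, SLC22A5, CRAT and CROT. They were taken by gene symbol from 56832 genes in the deposited table, all 8 were found there, and all 8 passed the filter on low values. The samples were A375, an established line of human melanoma cells labelled wild type and grown in DMEM with FBS. One group received 1 mM octanoate, a saturated fatty acid of medium chain length, and the other the vehicle isopropanol, each for 48 h. RNA was sequenced from 2 libraries per group. The labels do not say whether these came from separate cultures, so the spread between these libraries may be technical. The limma p-values measure only that spread, with each gene's variance drawn toward that of other genes of similar level.

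Fatty acids are first activated to acyl-CoA, which does not cross the inner mitochondrial membrane. A carnitine palmitoyltransferase of the CPT1 family at the outer membrane moves the acyl group to carnitine, the carrier SLC25A20 exchanges the acylcarnitine for free carnitine across the inner membrane, and CPT2 on the matrix side restores acyl-CoA for beta-oxidation. Malonyl-CoA, the building block of fatty acid synthesis, inhibits CPT1. Medium-chain acids such as octanoate can enter mitochondria largely without this shuttle and be activated in the matrix. CRAT and CROT move short-chain and medium-chain acyl groups to and from carnitine, and SLC22A5 brings carnitine into the cell.

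Recovered reads per library ranged from 67785956 to 78005035. Of 10 melanoma markers, 9 were tested, of which 1 rose and 3 fell. Over all tested genes 29.9% changed, 16.2% higher and 13.7% lower. SOX10, a transcription factor of the melanocyte lineage, was at 34072 to 41363 normalised counts in the 4 libraries, while TYR, the pigment enzyme tyrosinase, was at 1.93 to 3.93. S100B was at 4234 and 3741 in vehicle and 1917 and 1746 under octanoate (log2 difference -1.12, adjusted p by limma 9.15e-12), and MITF at 3533 and 3330 against 2414 and 2511 (-0.48, 2.33e-06). The melanoma marker that rose was PMEL, at 65.8 and 65.9 in vehicle and 98.2 and 95.4 under octanoate (0.55, adjusted p by limma 0.0289). Summed levels of the melanoma list were 57934 and 63422 in vehicle and 50462 and 55680 in octanoate. Of markers for other cell types, 2 of 4 endothelial markers rose, 2 of 6 fibroblast markers fell, 1 of 3 tested keratinocyte markers rose and 1 fell, and 1 of 2 tested leukocyte markers rose. Their summed levels in vehicle and octanoate were 576 to 580 and 787 to 792 for endothelial, 2389 to 2415 and 2078 to 2199 for fibroblast, 5955 to 6975 and 5178 to 6853 for keratinocyte, and 600 to 670 and 725 to 777 for leukocyte markers. The keratinocyte markers ranged from KRT1, at 0 in all 4 libraries, to KRT10, at 4566 to 6173. KRT14 was at 1110 and 942 in vehicle and 266 and 218 under octanoate, and its log2 difference of -2.08 (adjusted p by limma 2.40e-13) was larger in size than that of any carnitine shuttle gene. KRT15 went the other way, at 272 and 283 in vehicle and 412 and 391 under octanoate (0.53, adjusted p by limma 0.000445). The leukocyte markers included PTPRC at 1.93 to 10.8 and LYZ at 574 to 749. A part of these markers in the results was not tested.

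Under octanoate 3 of the 8 members rose and none fell: CPT1A, the liver-type CPT1 that is the main entry step in most tissues, SLC25A20, the carrier, and CPT1C, the CPT1 best known from brain. Their mean levels were 1.39-fold, 1.50-fold and 1.73-fold those in vehicle. The other members, CPT1B, CPT2, SLC22A5, CRAT and CROT, did not pass the test. For comparison, 29.9% of the 20250 tested genes changed, 16.2% higher and 13.7% lower, so 3 calls among 8 members do not set the group apart from the other genes. The median log2 difference of the members was 0.13, against 0.01 over all tested genes. Calls used limma with an intensity trend on log2(normalised count + 1) and a Benjamini-Hochberg adjusted p under 0.05 over all tested genes, and log2 differences are octanoate minus vehicle on that scale. The measure is a share of each library's RNA in bulk samples, so fewer cells of a type and less RNA per cell cannot be told apart.

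**Figure D1:**
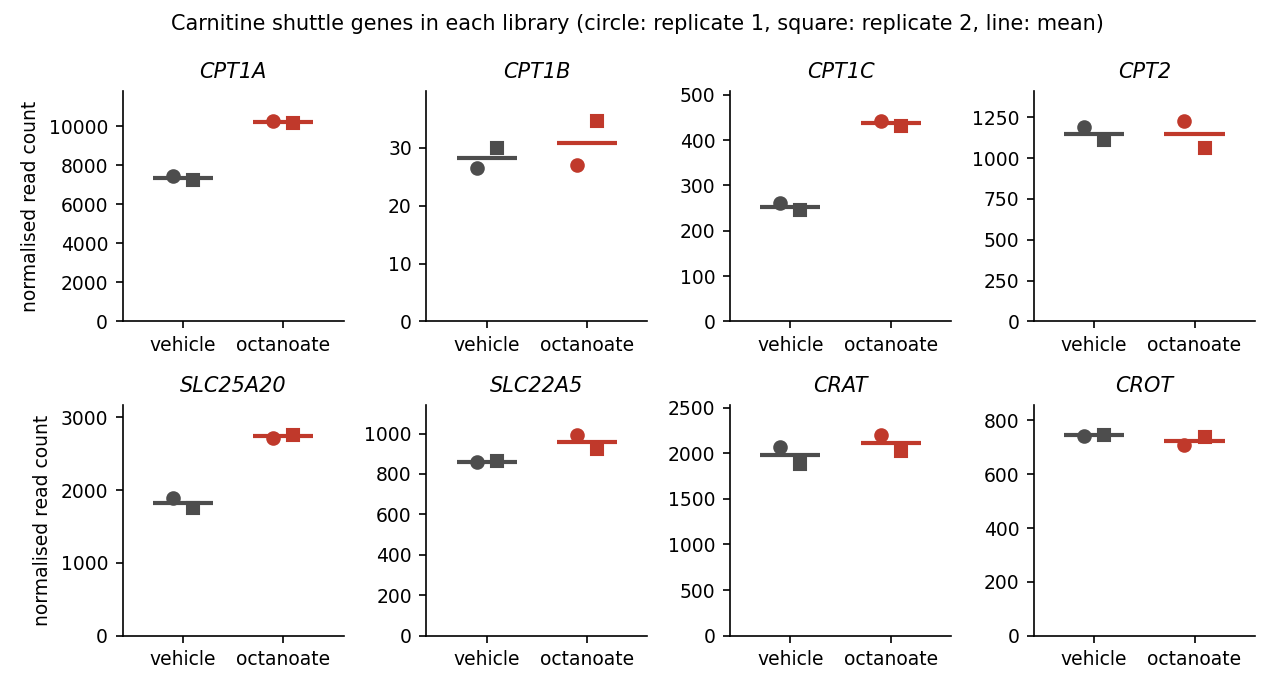
Normalised read counts of the 8 members (vertical axes, each from 0) in the 2 vehicle libraries (grey) and the 2 octanoate libraries (red), with circles for replicate 1, squares for replicate 2 and lines for group means. Both octanoate points lie far above both vehicle points for CPT1A, CPT1C and SLC25A20, while those of CPT1B, CPT2 and CRAT overlap with vehicle.

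CPT1A lies at chr11:68754620-68844410 on the minus strand (GRCh38, GENCODE 29). Its normalised read counts were 7467 and 7246 in vehicle and 10298 and 10172 under octanoate. The lower octanoate library was thus well above the higher vehicle library, and the libraries of each group were close together. The means were 7356 ± 156 and 10235 ± 89.3 (SD, n = 2 each). The log2 difference was 0.48 with an SE of 0.06 (adjusted p by limma 4.27e-07). A smaller absolute difference was found for 80.3% of the tested genes. Transcripts of CPT1A hold stretches of up to 297 bases that match transcripts of 9 other genes at an identity of at least 95%, so reads from those stretches may not be assigned to 1 gene.

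SLC25A20, the carnitine-acylcarnitine translocase, lies at chr3:48856931-48898993 on the minus strand. Its counts were 1887 and 1758 in vehicle and 2714 and 2758 in octanoate, again without overlap. The means were 1822 ± 90.6 and 2736 ± 30.9 (SD, n = 2 each). The log2 difference was 0.59 with an SE of 0.07 (adjusted p by limma 1.91e-07), which had the smallest p of the 8 members. No overlapping gene and no shared sequence was found for it in GENCODE 29.

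CPT1C, which sits in the endoplasmic reticulum and has little acyltransferase activity, lies at chr19:49690898-49713731 on the plus strand. Its counts were 261 and 245 in vehicle and 443 and 431 in octanoate, with no overlap between the groups. The means were 253 ± 11.3 and 437 ± 8.09 (SD, n = 2 each). The log2 difference was 0.79 with an SE of 0.11 (adjusted p by limma 3.52e-06). It was the largest difference among the members, at a level resting on 253 to 460 reads per library. CPT1C transcripts share stretches of up to 132 bases with 12 other genes, so its count is uncertain to that extent.

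The calls of CPT1A, SLC25A20 and CPT1C held in all 16 alternative settings, with log2 differences of 0.45 to 0.50, 0.54 to 0.64 and 0.74 to 0.83. Their highest limma adjusted p came without an intensity trend in the variance prior, at 0.0399, 0.0365 and 0.0274. In the authors' deposited table the log2 fold changes were 0.48, 0.59 and 0.79, with adjusted p of 6.94e-15, 8.48e-12 and 2.30e-05. The authors' deposited table likewise called these 3 members and no other, where 12.9% of its 33533 genes had an adjusted p under 0.05.

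**Figure D2:**
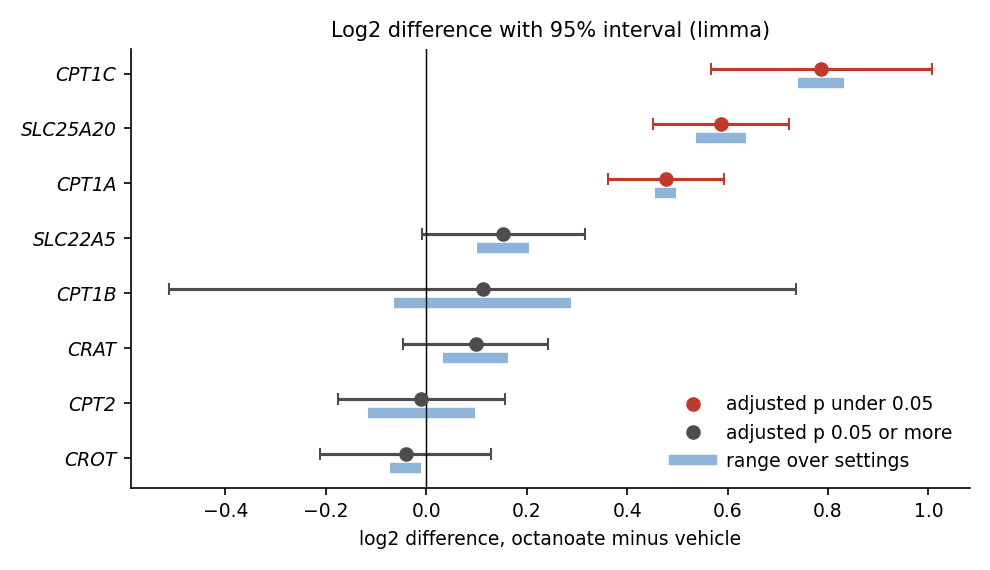
Log2 difference, octanoate minus vehicle (horizontal axis), for each member, with points for the limma estimate, whiskers for its 95% interval, red for an adjusted p under 0.05, and blue bars for the range over all settings. The intervals of CPT1C, SLC25A20 and CPT1A lie wholly above 0, while the interval of CPT1B runs from -0.51 to 0.74.

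CPT2 completes the transfer in the matrix and lies at chr1:53196429-53214197 on the plus strand. Its counts were 1191 and 1109 in vehicle and 1229 and 1060 in octanoate, so that the octanoate libraries lay on either side of the vehicle libraries. The log2 difference was -0.01 (SE 0.08, 95% interval -0.18 to 0.16, limma adjusted p 0.945). The interval leaves out rises as large as those of CPT1A or SLC25A20. Exons of CPT2 overlap those of C1orf123, which fell by 0.19 log2 units (adjusted p by limma 0.0337), and of an antisense gene on the opposite strand, and whether counting used the strand is not given in the sources used here.

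Within each library the ratio of CPT1A to CPT2 counts was 6.27 and 6.53 in vehicle and 8.38 and 9.60 in octanoate. The ratio of SLC25A20 to CPT2 was 1.58 and 1.59 in vehicle and 2.21 and 2.60 in octanoate. Both ratios were higher in both octanoate libraries. The ratio of SLC25A20 to CPT1A moved less, from 0.253 and 0.243 to 0.264 and 0.271. With 2 libraries against 2, an exact two-sided permutation test cannot give a p below 0.333, so the ratios are given as a description.

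SLC22A5, the plasma membrane carnitine transporter also called OCTN2, lies at chr5:132369752-132395614 on the plus strand. Its counts were 860 and 863 in vehicle and 993 and 924 in octanoate. Both octanoate libraries were above both vehicle libraries, but the log2 difference of 0.15 did not pass the test (SE 0.08, 95% interval -0.01 to 0.32, limma adjusted p 0.152). It remained positive in the 16 alternatives, from 0.10 to 0.21, and its smallest adjusted p there was 0.0539, with the replicate number as a block. Groups did not overlap for 63.1% of the tested genes, 32.6% with octanoate above and 30.5% with octanoate below, and for 5 of the 8 members, 4 above and 1 below. On the opposite strand 73 exon bases of SLC22A5 overlap MIR3936HG.

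CRAT, which makes acetylcarnitine and other short-chain acylcarnitines, lies at chr9:129094810-129111189 on the minus strand. Its counts were 2065 and 1886 in vehicle and 2201 and 2028 in octanoate, which overlap. The log2 difference was 0.10 (SE 0.07, 95% interval -0.05 to 0.24, limma adjusted p 0.314). CRAT overlaps PTPA by 75 exon bases and an antisense gene by 34, both on the opposite strand.

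CROT, the peroxisomal enzyme that prefers medium-chain acyl groups such as octanoyl, lies at chr7:87345681-87399795 on the plus strand. Its counts were 743 and 746 in vehicle and 708 and 739 in octanoate. Both octanoate libraries were slightly below both vehicle libraries, with a log2 difference of -0.04 that did not pass the test (SE 0.08, 95% interval -0.21 to 0.13, limma adjusted p 0.758). No overlapping gene and no shared sequence was found for CROT.

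CPT1B, the muscle-type CPT1, lies at chr22:50568861-50578465 on the minus strand. It was the lowest of the members, at 26.5 and 30.0 normalised counts in vehicle and 27.0 and 34.7 in octanoate. The log2 difference of 0.11 had a wide interval, from -0.51 to 0.74 (SE 0.30, limma adjusted p 0.822), so a change as large as that of CPT1A would not have been detectable at this depth. It shares 2722 exon bases with the readthrough gene CHKB-CPT1B, which has its own row at 2.91 to 6.50 normalised counts. Reads from the shared exons cannot be assigned to 1 of the pair, and the level of CPT1B is therefore uncertain.

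Levels of different members were compared as normalised counts per kb of exon, with the exon union of the GENCODE 29 basic set as length. In vehicle the order was CPT1A at 1271 ± 27.0 per kb, SLC25A20 at 967 ± 48.1, CRAT at 609 ± 39.0, CPT2 at 362 ± 18.1, SLC22A5 at 260 ± 0.726, CROT at 176 ± 0.498, CPT1C at 86.8 ± 3.87 and CPT1B at 9.52 ± 0.841 (SD, n = 2 each). No neighbours in this order overlapped between their libraries. Under octanoate the order was the same, with CPT1A at 1769 ± 15.4 and SLC25A20 at 1452 ± 16.4 per kb (SD, n = 2 each). It was also the same with the length of the principal transcript. The union of all GENCODE 29 exons is longer, at 10452 bases for CPT2, 12788 for SLC22A5 and 4979 for CROT. Per kb of that union, CROT would come above CPT2 and SLC22A5. The order of these members thus depends on the length used.

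**Figure D3:**
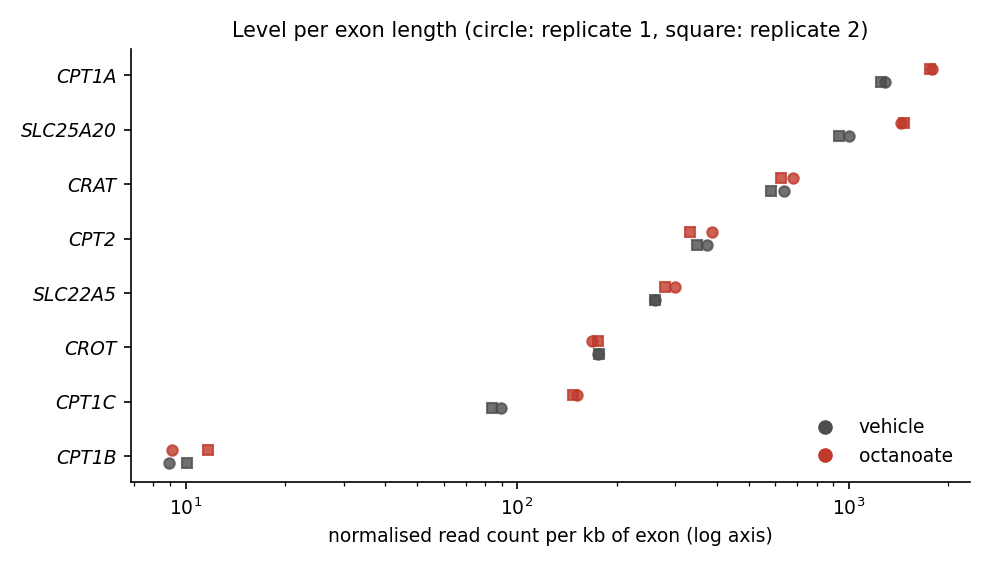
Normalised read count per kb of exon (horizontal log axis) for the 8 members, with vehicle libraries in grey and octanoate libraries in red, circles for replicate 1 and squares for replicate 2. CPT1A and SLC25A20 are highest in every library, and CPT1B is lowest.

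Among the CPT1 genes, CPT1A held 92.9% and 93.0% of the per-kb level in vehicle and 91.7% in each octanoate library. The share of CPT1C was 6.45% and 6.24% in vehicle and 7.82% and 7.71% in octanoate. That of CPT1B was below 1% throughout. CPT1A was thus the main CPT1 gene by RNA level in all 4 libraries.

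**Figure D4:**
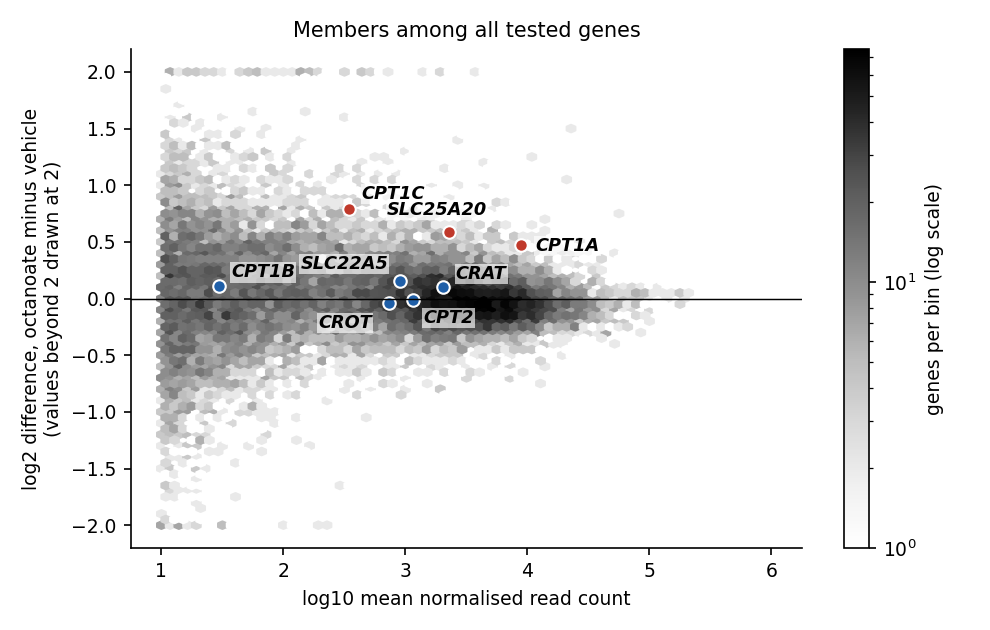
Log2 difference, octanoate minus vehicle (vertical axis, values beyond 2 drawn at 2), against log10 mean normalised read count for the 20250 tested genes (grey bins, darker where more genes fall) and the 8 members (red where called higher, blue where not called). CPT1C, SLC25A20 and CPT1A lie above the densest band of genes at their level, and the other members lie within it.

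Sequences upstream of the start sites are shown for the members that rose, and for CROT, which did not pass the test, because the data bear on their transcript levels. They come from RefSeq (GRCh38.p14), which gave a window for 6 of the 8 members, and read 5′ to 3′ on the gene's strand, with GC boxes (GGGCGG on either strand) in capitals. Each stretch is the part of the 250 bases before a RefSeq start that lies outside the gene as annotated in GENCODE 29. They lie at chr11:68844411-68844527 (minus) for CPT1A, chr3:48898994-48899132 (minus) for SLC25A20, chr19:49690598-49690847 (plus, the most upstream of the 3 CPT1C windows) and chr7:87345414-87345663 (plus) for CROT.
CPT1A: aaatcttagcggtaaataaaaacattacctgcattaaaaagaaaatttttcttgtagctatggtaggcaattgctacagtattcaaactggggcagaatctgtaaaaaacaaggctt
SLC25A20: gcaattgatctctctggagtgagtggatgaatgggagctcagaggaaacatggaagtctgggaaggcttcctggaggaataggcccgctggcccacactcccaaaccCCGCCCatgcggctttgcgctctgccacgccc
CPT1C: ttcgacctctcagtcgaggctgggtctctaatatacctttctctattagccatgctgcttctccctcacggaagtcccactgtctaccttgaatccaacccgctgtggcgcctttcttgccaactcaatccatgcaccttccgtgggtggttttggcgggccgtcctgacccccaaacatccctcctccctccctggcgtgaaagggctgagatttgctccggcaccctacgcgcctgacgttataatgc
CROT: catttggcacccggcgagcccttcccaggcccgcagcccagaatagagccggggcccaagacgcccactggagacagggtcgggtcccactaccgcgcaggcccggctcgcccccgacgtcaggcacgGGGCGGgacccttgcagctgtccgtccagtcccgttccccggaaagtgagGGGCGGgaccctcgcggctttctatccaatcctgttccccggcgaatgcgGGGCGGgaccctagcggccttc

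In full 250-base windows, the GC box was found in 6 of 8 windows, from 5 members (CPT1C, CPT2, CROT, SLC22A5 and SLC25A20), and in 42.6% of all 35116 RefSeq windows of that length. The full windows of SLC25A20 and CROT held 3 GC boxes each, and the CPT1C windows not printed held 1 each. The printed stretches of SLC25A20 and CPT1C thus do not show all of their GC boxes. The CCAAT box (CCAAT) was found for CPT1C and CROT, and in 32.0% of all windows. The CPT1A window held neither, and its GC content was 44.4%, against a median of 58.0% over all windows. That window overlaps the gene as annotated in GENCODE 29, and other windows of CPT1A were not searched. The CPT2 window lies wholly inside its annotated gene, and the SLC25A20 window and the CPT1C windows not printed also overlap theirs. GENCODE 29 lists 9 transcripts of CPT1A, and which start A375 cells mainly use was not tested. The PPAR response element, searched as AGGTCA repeated after 1 further base, was found in 0 of the 8 windows and in 0.0171% of all windows. The ATF4 composite site TGATGNAAT (0.888% of all windows), the cAMP response element TGACGTCA (1.65%), the E-box CACGTG (6.34%) and the TATA box TATAAA (10.7%) were also in none of the 8. Both strands were searched, and a match or its absence describes the letters of these windows only. Matches of different motifs overlapped in 0 of the 8 windows.

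Carnitine reaches the cell by uptake or is made from trimethyllysine. Of 7 other genes of carnitine supply, 5 were tested, 1 rose and none fell, with a median log2 difference of 0.21. Among all tested genes 16.2% rose and 13.7% fell. The one that rose was SLC16A9, a transporter linked to carnitine export, at 28.5 and 29.1 normalised counts in vehicle and 86.6 and 97.5 in octanoate, and the log2 difference was 1.64 with an SE of 0.23 (adjusted p by limma 5.35e-06). The transporter SLC22A4 had 409 and 412 in vehicle and 478 and 471 in octanoate. It passed the test with the replicate block (limma adjusted p 0.0461) but not under the main settings (limma adjusted p 0.105). The synthesis enzymes TMLHE (log2 difference -0.02) and ALDH9A1 (-0.09) did not pass it either. BBOX1, the last enzyme of carnitine synthesis, was at 0 to 5.81 normalised counts and was not tested.

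CPT1 is held back by malonyl-CoA, which ACACA and ACACB make, MLYCD removes, and the kinase AMPK limits by phosphorylating the carboxylases. Of 16 genes of this group, 15 were tested, 4 rose and 1 fell, and the median log2 difference was 0.01. This count is near the share over all tested genes, of which 29.9% changed. Neither carboxylase nor MLYCD passed the test: the log2 differences were -0.10 for ACACA (limma adjusted p 0.193), 0.09 for ACACB (0.430) and 0.19 for MLYCD (0.109). MLYCD passed it without octanoate 2, at a log2 difference of 0.28 (limma adjusted p 0.0438), and with the replicate block (0.0268). ACACA passed it with the replicate block (limma adjusted p 0.0381) and after correction for trends on GC and length (0.00448). The genes that rose were MID1IP1, which promotes polymerisation of the carboxylase (0.37, limma adjusted p 4.59e-05), and the AMPK subunits PRKAG2 (0.36, 0.000232), PRKAB2 (0.36, 0.000233) and PRKAA2 (0.21, 0.0324). The other tested AMPK subunits had negative log2 differences and did not pass the test. They were PRKAG1 (-0.13, limma adjusted p 0.0745), PRKAB1 (-0.11, 0.247) and PRKAA1 (-0.07, 0.376). PRKAG1 passed it in some alternative settings, so the AMPK subunits did not move in 1 direction. STRADB, a partner of the upstream kinase STK11, fell by 0.24 log2 units (adjusted p by limma 0.0144). Without an intensity trend 0 of these genes passed, and 3 did without vehicle 1. Leaving out any 1 of the 4 libraries ended the call of PRKAA2, and leaving out vehicle 1 or octanoate 2 ended that of STRADB.

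Long-chain acyl-CoA synthetases supply the substrate of CPT1, and the list followed here also held synthetases for other chain lengths. Of 21 synthetases and fatty acid transport proteins, 13 were tested, 5 rose and none fell, with a median log2 difference of 0.16. Over all tested genes 29.9% changed, 16.2% higher and 13.7% lower. The largest rise was that of ACSM3, a medium-chain synthetase with a mean of only 69.1 normalised counts (1.30 log2 units, adjusted p by limma 5.03e-05). The long-chain synthetase ACSL3 had 29705 ± 627 normalised counts in vehicle and 55523 ± 1251 under octanoate (SD, n = 2 each). The log2 difference was 0.90 with an SE of 0.06 (adjusted p by limma 1.56e-11). ACSL4, which prefers polyunsaturated acids, rose by 0.53 log2 units (adjusted p by limma 6.53e-08), and the transport protein SLC27A4 by 0.21 (0.0155). Without octanoate 1, 3 of these genes passed, and the call of SLC27A4 ended without vehicle 2 or octanoate 1 (limma adjusted p 0.189 and 0.105).

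Downstream of CPT2, 9 of 17 mitochondrial beta-oxidation genes rose and 1 fell, with a median log2 difference of 0.15. Among all tested genes 16.2% rose and 13.7% fell. ACAA2, a thiolase of the last step of the cycle, rose by 0.58 ± 0.06 log2 units (SE, adjusted p by limma 1.14e-07). ACADVL, the dehydrogenase for very-long-chain acyl-CoA, rose by 0.45 ± 0.06 (SE, adjusted p by limma 3.41e-06), and ETFA, a subunit of the flavoprotein that takes up electrons from the dehydrogenases, by 0.39 ± 0.06 (SE, adjusted p by limma 1.00e-05). ACADM, the dehydrogenase for medium-chain acyl-CoA, had a log2 difference of -0.01 (limma adjusted p 0.918). The count of 10 changed genes was 6 without vehicle 2, without octanoate 1 or without octanoate 2, and 1 without an intensity trend, where the adjusted p was 0.0602 for ACADVL and 0.0589 for ETFA.

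The peroxisomal list, whose acyl products CROT and CRAT can pass on, had calls in both directions. Of 14 tested genes, 1 rose and 3 fell, with a median log2 difference of -0.04. This is near the 29.9% of all tested genes that changed, so the count does not set the list apart. AMACR, a racemase for branched-chain acyl-CoA, fell by 0.47 log2 units (adjusted p by limma 0.00129) and the thiolase ACAA1 by 0.30 (0.00162). Without an intensity trend none of the 14 passed, and without octanoate 2 only 2 did.

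CPT1A and SLC25A20 are known targets of PPAR receptors, which fatty acids activate. Of 20 other PPAR targets, 16 were tested, 12 rose and none fell, with a median log2 difference of 1.46. Among all tested genes 16.2% rose and 13.7% fell. Among those whose mean reached 100, the largest rises were those of FABP4, a fatty acid binding protein (6.68), ANGPTL4, an inhibitor of lipoprotein lipase (5.22), and CREB3L3, a transcription factor of lipid metabolism (3.36), with limma adjusted p of 4.21e-17, 3.07e-19 and 3.84e-17. The log2 differences of CPT1A and SLC25A20, 0.48 and 0.59, were below those of all 12 of these genes, the smallest being that of LPL at 0.69, though differences between genes were not tested. In vehicle FABP4 had 10.8 and 5.81 normalised counts, so its value depends on few reads.

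**Figure D5:**
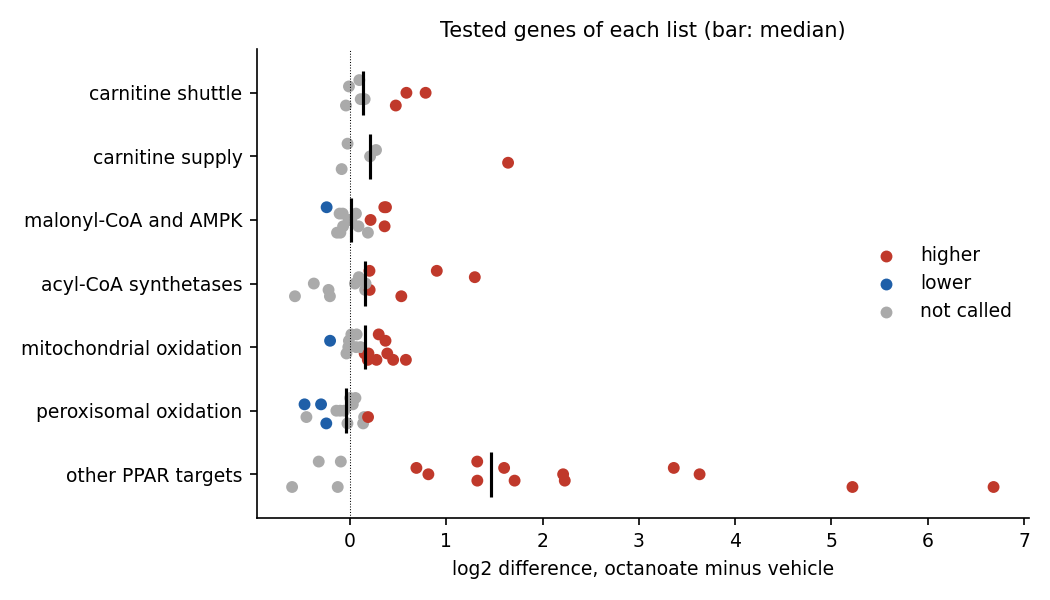
Log2 difference, octanoate minus vehicle (horizontal axis), for the tested genes of the carnitine shuttle and of 6 related lists, with red for called higher, blue for called lower, grey for not called and a black bar for each median. The medians of the shuttle and of mitochondrial oxidation are 0.13 and 0.15, and that of the other PPAR targets is 1.46.

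The genes whose pattern over the 4 libraries lay nearest to that of CPT1A were sought among the 13475 genes whose mean reached 100, by the root mean square difference of log2 values centred on each gene's mean. They were ADGRB2, an adhesion receptor (0.0074), the gene RP11-660L16.2 (0.0086) and AMIGO2, a cell adhesion molecule (0.0092). AMIGO2 went from 8222 and 8021 normalised counts in vehicle to 11508 and 11372 in octanoate. With 4 libraries in 2 groups, a gene with about the same fold difference and close replicates lies near CPT1A by this measure.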

How the data were processed

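Per the submitters' processing notes, bcl2fastq 2.17, Trim Galore, STAR 2.4, Picard, HTSeq 0.9.1 and DESeq2 were used with hg38. Their roles, the annotation and the strand setting are not given in the sources used here. The authors deposited a signal per gene, named as a DESeq2-normalised count, with 1 factor per library and no correction for length. Every positive value (100%) was a whole multiple, within 0.001, of its library's smallest, so whole reads were recovered. The authors also deposited a comparison table with a mean signal, a log2 fold change and its error, a test score, a p-value and an adjusted p-value.

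Genes with a mean of at least 10 (20250) were tested with limma 3.58.1 in R 4.3.3, two-sided, on log2(value + 1). Group was the only term. The variance prior had 21.2 degrees of freedom, so with 2 libraries per group each SE rested largely on the trend over other genes. The members and lists were chosen with earlier results of these data known. Named were all members, genes of carnitine supply and of the malonyl-CoA group, in the other lists the 3 called genes with the largest difference and a mean of at least 100, ACADM, 3 neighbours of CPT1A, and genes whose exons overlap a member. The values of 1 gene under this rule are not reported here. LPL, ACSM3 and the single markers SOX10, TYR, S100B, MITF, PMEL, KRT1, KRT10, KRT14, KRT15, PTPRC and LYZ were named after their values were seen. These were not followed through the alternative settings. There were 14 alternative settings, among them edgeR 4.0.16 and DESeq2 1.42.0 on recovered reads (6480 genes called by edgeR, 4924 by DESeq2), and 2 more were added after seeing the data. Shared sequence was searched with blastn 2.17.0 (from 95% identity and 100 bases) in GENCODE 29, whose build is that of the notes. Of the 20250 tested genes, 15183 (75.0%) matched GENCODE 29 by symbol. Lengths, overlaps and shared sequence are those of GENCODE 29 and may differ from those of the annotation used for counting. On simulated counts for 19945 genes, limma recovered 66.1%, 90.0% and 98.3% of changes of 0.5, 1 and 2 log2 units, and 12 of its 174 calls were false. Only 62, 70 and 59 genes were changed by these sizes, a far smaller share than was called in the data. The simulated spread was estimated from these same libraries. The rates therefore need not hold for the real fit.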

Additional observations from a re-analysis of the deposited data

How the results depend on the processing

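Across all 16 alternatives 3 members were called and none of the 8 was called lower, and no member or named gene changed direction while called. The 2 alternatives restricted to GENCODE 29 genes, with 15183 genes tested, were added after seeing the data. Under the main settings 6048 genes were called. Calls over all genes fell to 2595 with no filter and to 1625 without an intensity trend, and calls over the 6 related lists (37 under the main settings) to 21 and 15. In the same order of settings, the called genes were 2 and 0 for the malonyl-CoA list, 3 and 3 for acyl-CoA synthetases, 5 and 1 for mitochondrial oxidation and 1 and 0 for peroxisomal oxidation. With GC content and length trends removed, 8 genes of the malonyl-CoA list were called. Leaving out 1 library at a time gave 3 to 4 calls for the malonyl-CoA list, 3 to 5 for acyl-CoA synthetases, 6 to 9 for mitochondrial oxidation and 2 to 4 for peroxisomal oxidation, and 4382 to 4878 over all genes. In each case the cause was not tested.

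What the replicate numbers stand for is not labelled. Same-numbered libraries had a correlation of 0.13 between their deviations from the group means, across 20250 genes that are not independent replicates. With the replicate number as a replicate block, 8376 genes were called, with 2 for carnitine supply, 8 for the malonyl-CoA list, 7 for peroxisomal oxidation and 3 members.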
